A study of Mus musculus with 12 samples.

Results

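The genes described here are the 10 mouse genes for m6A readers, the proteins that bind RNA carrying the methylated adenosine called m6A. They were chosen by name, as Ythdf1, Ythdf2, Ythdf3, Ythdc1, Ythdc2, Igf2bp1, Igf2bp2, Igf2bp3, Hnrnpa2b1 and Hnrnpc. All 10 were found by symbol among the 57490 genes of the count table, and 9 of them were among the 17431 genes with enough counts to be tested. Kidney RNA with a poly(A) tail was sequenced from 12 male mice aged 13 weeks, 4 in each of 3 groups. Model mice were db/db mice of the strain BKS.Cg-Dock7m +/+ Leprdb/JNju, which carry a mutated leptin receptor gene, Lepr, on both chromosomes and become obese and diabetic. Ctrl mice were non-diabetic heterozygotes of the same age on the BKS background, called db/m or db/+, and Ctrl and Model mice both received purified water by gavage. YHY mice were db/db mice of the Model strain gavaged once a day for 4 weeks with a water extract, labelled 6.24 g/mL, of Yiqi Huoxue Yangyin Decoction, a herbal formula. The samples were labelled as kidney and as whole tissue, whereas the description of the series named renal cortex. In such bulk tissue, fewer cells of a type and less RNA per cell cannot be told apart.

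The m6A mark is placed on RNA by a methyltransferase complex, the writers, and removed by demethylases, the erasers, while readers bind the marked RNA and act on its splicing, export, translation or decay. Proteins with a YTH domain hold the methyl group directly in a pocket, IGF2BP proteins bind and stabilise target mRNAs, and the hnRNPs A2B1 and C are abundant nuclear RNA binding proteins whose access to RNA is changed by the mark. In the kidney, m6A enzymes and readers have been studied in acute injury, fibrosis and diabetic disease.

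Library totals ran from 24415658 counts in Model 4 to 33276634 in Ctrl 1, and between 20382 genes (YHY 2) and 22250 genes (YHY 3) had a count. The libraries differed in make-up by genotype. Transcripts of the mitochondrial genome made up 18.6%, 22.7%, 18.4% and 18.5% of the counts in Ctrl 1 to 4, 41.2%, 58.9%, 55.3% and 53.4% in Model 1 to 4, and 53.8%, 64.6%, 54.6% and 54.2% in YHY 1 to 4. Every db/db mouse was above every Ctrl mouse, and the 95% Wilson binomial interval of each share, which covers counting error only, was at most 0.0396 points wide. Malat1 and Neat1, long RNAs that are retained in the nucleus, also differed between groups. The mean level of Malat1 was 125 ± 22.7 CPM (counts scaled by TMM library factors; SD, n = 4) in Ctrl, against 274 ± 95.5 in Model and 522 ± 63.2 in YHY mice. Neat1 stood at 209.5 ± 22.9, 462 ± 115 and 781 ± 112 CPM (SD, n = 4) in the same order. The part of these differences in library make-up in the levels of the readers was not tested.

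**Figure D1:**
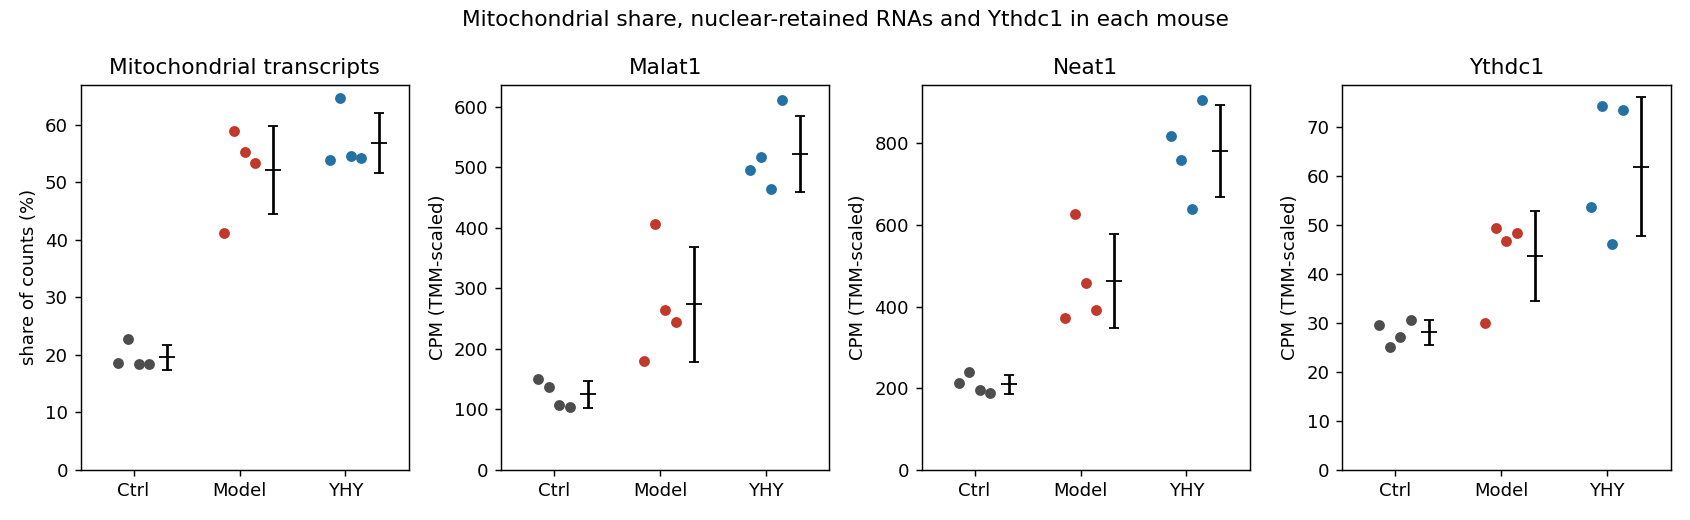
Share of mitochondrial transcripts in all counts (percent) and TMM-scaled level (CPM) of Malat1, Neat1 and Ythdc1, with a point for each mouse and the mean ± SD of each group beside it. The mitochondrial share lies between 18.4% and 22.7% in Ctrl and between 41.2% and 64.6% in the db/db mice, and Model 1 is the lowest Model mouse in all 4 panels.

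The db mutation changes the splicing of Lepr and leaves the gene in place, so its total counts do not check the genotype. Lepr ran from 4.84 to 11.7 CPM in Ctrl, from 2.79 to 8.27 CPM in Model and from 4.34 to 16.6 CPM in YHY, so the groups overlapped. Neither Model against Ctrl (log2 fold change -0.54, adjusted P = 0.292) nor YHY against Model (0.65, adjusted P = 0.298) passed edgeR's quasi-likelihood test with Benjamini-Hochberg adjustment.

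The readers spanned more than 3 orders of level. In Ctrl, per kilobase of gene length, Hnrnpa2b1 stood at 60.4 ± 5.20 CPM per kb (SD, n = 4), Hnrnpc at 21.1 ± 2.18, Ythdf3 at 12.4 ± 0.811, Ythdf1 at 7.64 ± 0.347, Ythdf2 at 6.05 ± 0.209 and Ythdc1 at 2.05 ± 0.183. Ythdc2 (0.591 ± 0.0237), Igf2bp2 (0.556 ± 0.111), Igf2bp1 (0.39 ± 0.0342) and Igf2bp3 (0.0235 ± 0.0263) followed. Ythdc2 and Igf2bp2 did not differ beyond their spread, the mice overlapped between Igf2bp2 and Igf2bp1, and the other neighbours in this order were apart in every Ctrl mouse. This order rests on the deposited gene lengths, such as 13651 bases for Ythdc1 and 3316 for Ythdf1. Without division by length, the Ctrl means were 28.0 CPM for Ythdc1, 27.7 for Ythdf2 and 25.3 for Ythdf1. In Model, the order per kilobase was the same except that Igf2bp2 (1.17 ± 0.308 CPM per kb) stood above Ythdc2 (0.611 ± 0.121), and Ythdf2 (4.09 ± 0.533) and Ythdc1 (3.19 ± 0.673) overlapped. In YHY, Ythdc1 (4.53 ± 1.04 CPM per kb) and Ythdf2 (4.23 ± 1.16) did not differ beyond their spread, nor did Hnrnpc (15.6 ± 0.807) and Ythdf3 (15.1 ± 3.72). The 10 readers together summed to between 608 and 671 CPM in Ctrl, between 519 and 567 CPM in Model and between 492 and 679 CPM in YHY. Hnrnpa2b1 was the largest part of each sum, and the YHY mice overlapped both other groups.

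**Figure D2:**
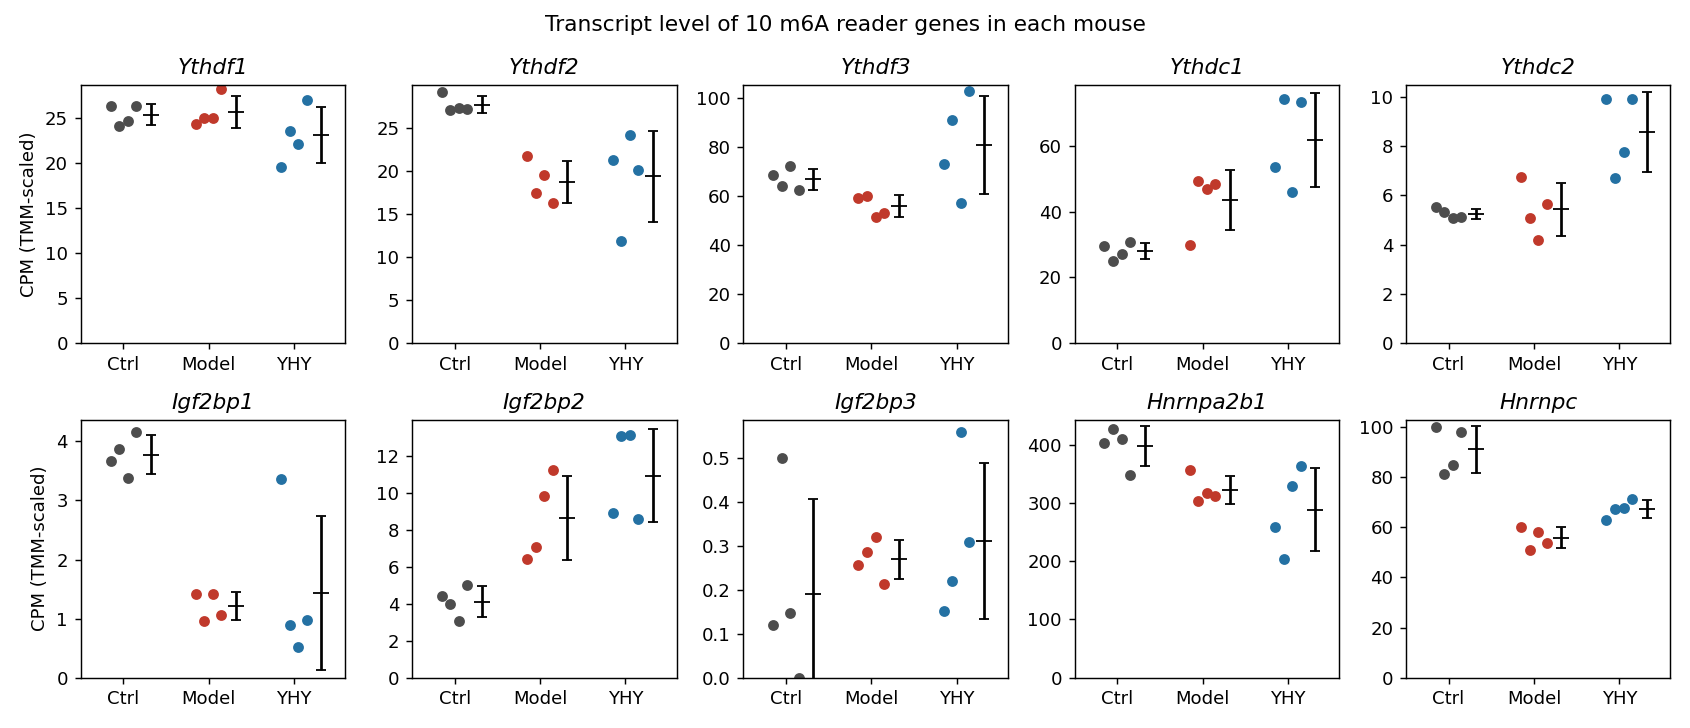
Level (TMM-scaled CPM, axes from 0) of the 10 reader genes in each mouse, with a point for each mouse and the mean ± SD of the group beside it. Hnrnpc lies between 81.4 and 100.2 CPM in Ctrl and between 51.1 and 60.1 CPM in Model, and Igf2bp1 in YHY 1 (3.36 CPM) stands apart from the other YHY mice.

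The first comparison, Model against Ctrl, sets diabetic against non-diabetic kidney. Ythdc1 and Igf2bp2 were higher in Model, Ythdf2, Igf2bp1 and Hnrnpc were lower, and the other 4 tested readers did not pass the test. That is 2 readers higher and 3 lower of 9 tested, by edgeR at an adjusted P under 0.05, where 19.6% of all 17431 genes tested were higher and 18.5% were lower. With library size alone, 0 readers were higher by edgeR and 5 were lower (Ythdf2, Ythdf3, Igf2bp1, Hnrnpa2b1 and Hnrnpc). The median log2 fold change of the 9 readers was -0.26, beside 0.04 for all genes. In YHY against Model, which asks what the extract changed in db/db kidney, 2 readers (Ythdf3 and Ythdc2) were higher, where 5.63% of all genes were higher and 7.62% lower. By edgeR 0 readers were lower in that comparison, and the count was also 0 at an unadjusted P under 0.05 and by DESeq2. At an unadjusted P under 0.05, 4 readers were higher, and 2 were higher by DESeq2. The median of the readers was 0.27, beside 0.02 for all genes. The number higher fell to 0 by edgeR with library size alone, with no filter and with only the 8 mice compared. It was also 0 with a block for replicate number and without Ctrl 2, Model 1 and YHY 4. With each mouse left out in turn, it ran from 0 to 2 and moved in 11 of the 12 fits. In YHY against Ctrl, 3 readers were higher (Ythdc1, Ythdc2 and Igf2bp2) and 4 were lower (Ythdf2, Igf2bp1, Hnrnpa2b1 and Hnrnpc), where 26.1% of all genes were higher and 24.2% lower. The median was -0.14 for the readers and 0.10 for all genes. After scaling to totals outside the mitochondrial genome, 0 readers were lower in YHY against Ctrl by edgeR. Ythdf2 was then at -0.03, Hnrnpa2b1 at 0.01, Hnrnpc at 0.03 and Igf2bp1 at -0.89 (adjusted P = 0.115). Ythdf3 was called higher under that scaling (0.73). The 3 comparisons share the mice of their groups and are not independent of each other. With 9 readers, each of these shares rests on a few genes.

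**Figure D3:**
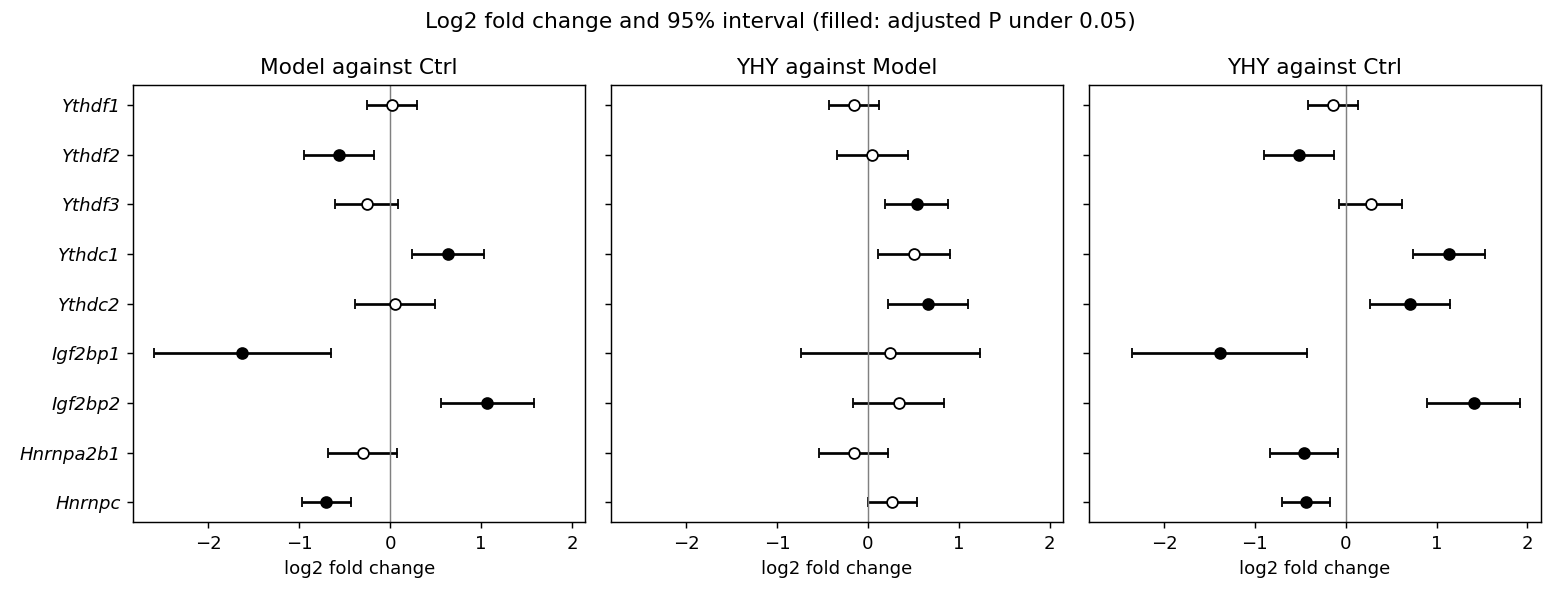
Log2 fold change (horizontal axis) of the 9 tested readers in the 3 comparisons, with points for edgeR's estimates and lines for their 95% intervals, where filled points have an adjusted P under 0.05. Igf2bp1 has the widest interval in Model against Ctrl, from -2.60 to -0.66, and Hnrnpc lies between -0.97 and -0.44.

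The choice of library scaling moved all genes together. In Model against Ctrl, the median log2 fold change of all genes was 0.04 with TMM, 0.14 with upper-quartile scaling, -0.39 with library size alone and 0.37 with totals outside the mitochondrial genome, for which the mitochondrial genes were removed and 16952 genes were tested. In YHY against Ctrl these medians were 0.10, 0.22, -0.33 and 0.57, and in YHY against Model the last of these scalings gave 0.16. With TMM, the share of called genes that were higher was 51.5% for Model against Ctrl, 42.5% for YHY against Model and 51.9% for YHY against Ctrl. It was 21.4%, 41.7% and 28.4% with library size alone, and 77.8%, 64.6% and 77.7% with totals outside the mitochondrial genome. Relative to the median of all genes, the readers moved little between scalings. For Hnrnpc in Model against Ctrl, that relative value was -0.74 with TMM, -0.74 with upper-quartile scaling, -0.75 with library size alone and -0.75 with totals outside the mitochondrial genome. For Igf2bp2 it was 1.03, 1.03, 1.02 and 1.03, and for Ythdf2 it was -0.60, -0.60, -0.59 and -0.61. The directions given for the readers are therefore directions relative to most other genes.

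Ythdf1, Ythdf2 and Ythdf3 encode the cytoplasmic YTH proteins, which are close paralogs. YTHDF2 is known for bringing marked mRNA to the CCR4-NOT deadenylase and so to decay, YTHDF1 was first described with the translation of marked mRNA, and YTHDF3 works with both. Ythdf2 (ENSMUSG00000040025, chr4:131912223-131939614 in GRCm39) read 29.1, 27.1, 27.3 and 27.2 CPM in Ctrl 1 to 4, 21.7, 17.4, 19.5 and 16.2 CPM in Model 1 to 4, and 21.2, 11.8, 24.2 and 20.1 CPM in YHY 1 to 4. Every Model and every YHY mouse was below every Ctrl mouse, and YHY 2 was the lowest of all. The level fell by 0.56 on the log2 scale in Model against Ctrl (SE 0.18, 95% interval -0.95 to -0.17), with an adjusted P of 0.0239 by edgeR's quasi-likelihood test with Benjamini-Hochberg adjustment. The call was lost when Ctrl 1 (adjusted P = 0.0501), Model 2 (0.0664) or Model 4 (0.0751) was left out, with upper-quartile scaling (0.0652) and with totals outside the mitochondrial genome (0.342). YHY mice stayed low, with a log2 fold change against Ctrl of -0.51 (adjusted P = 0.0277, edgeR), and that call was lost without Ctrl 1 (0.0516) or YHY 2 (0.0571), with upper-quartile scaling (0.0978) and with totals outside the mitochondrial genome (-0.03, 0.898). Against Model the value was 0.05 (adjusted P = 0.902, edgeR), with an interval from -0.34 to 0.44.

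Ythdf3 (ENSMUSG00000047213, chr3:16237376-16271201 in GRCm39) moved in the treated mice. It read 68.5, 64.2, 72.0 and 62.4 CPM in Ctrl 1 to 4, 59.0, 60.1, 51.3 and 53.1 CPM in Model 1 to 4, and 72.9, 90.8, 57.2 and 102.7 CPM in YHY 1 to 4. Of the YHY mice, 1, 2 and 4 were above every Model mouse, and YHY 3 lay within the Model range. Ythdf3 was higher in YHY than in Model by 0.53 on the log2 scale (SE 0.16, 95% interval 0.19 to 0.88), with an adjusted P of 0.0419 by edgeR. This call was near the threshold, and leaving out any of Ctrl 1, 2 or 3, Model 1, 2, 3 or 4, or YHY 2 or 4 ended it, with adjusted P values of 0.0537 to 0.124 in those 9 fits. The log2 fold change itself ran from 0.39 to 0.67 over the 12 mice left out in turn. The call also ended with library size alone (adjusted P = 0.104), no filter (0.0542) and only the 8 mice compared (0.066). A block for replicate number (0.0723) and leaving out Ctrl 2, Model 1 and YHY 4 (0.0986) ended it too. In Model against Ctrl the value was -0.26 (adjusted P = 0.231), although the 4 Model mice lay below the 4 Ctrl mice, and it was -0.69 (adjusted P = 0.00662), a call, with library size alone and 0.07 with totals outside the mitochondrial genome. Relative to Ctrl, Ythdf3 in YHY was at 0.28 (adjusted P = 0.171), which became a call with totals outside the mitochondrial genome (0.73, adjusted P = 0.000561), with upper-quartile scaling (0.39, adjusted P = 0.045) and without YHY 3 (0.41, adjusted P = 0.0342), and which was -0.18 with library size alone.

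Ythdf1 (ENSMUSG00000038848, chr2:180546170-180562742 in GRCm39) was not called in any comparison. It ran from 24.1 to 26.3 CPM in Ctrl, from 24.3 to 28.2 CPM in Model and from 19.6 to 27 CPM in YHY, and the 3 groups overlapped. Its log2 fold changes were 0.02 in Model against Ctrl (adjusted P = 0.935, 95% interval -0.26 to 0.29) and -0.15 in YHY against Model (adjusted P = 0.483, 95% interval -0.43 to 0.13) by edgeR. These intervals leave room for changes of either sign, and the sign of the first was negative with library size alone (-0.42). Relative to Ctrl, YHY gave -0.14 (adjusted P = 0.407), which was -0.58 (adjusted P = 0.0132) with library size alone and 0.32 (adjusted P = 0.0638) with totals outside the mitochondrial genome.

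The family's make-up was read as shares per kilobase. Of the family, Ythdf3 made up 47.6 ± 1.85% of the counts in Ctrl mice, 46.8 ± 2.34% in Model mice and 56.9 ± 7.13% in YHY mice (SD, n = 4). Ythdf2 made up 23.2 ± 0.600%, 18.4 ± 2.22% and 16.5 ± 6.01%, and Ythdf1 made up 29.2 ± 1.42%, 34.8 ± 3.00% and 26.6 ± 2.11%. Ythdf3 was thus the most abundant of the 3 in each mouse, its share in YHY 3 (47.2%) lay within the ranges of Ctrl and Model, and the spread of Ythdf2 in YHY ran from 9.68% in YHY 2 to 23.4% in YHY 3.

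**Figure D4:**
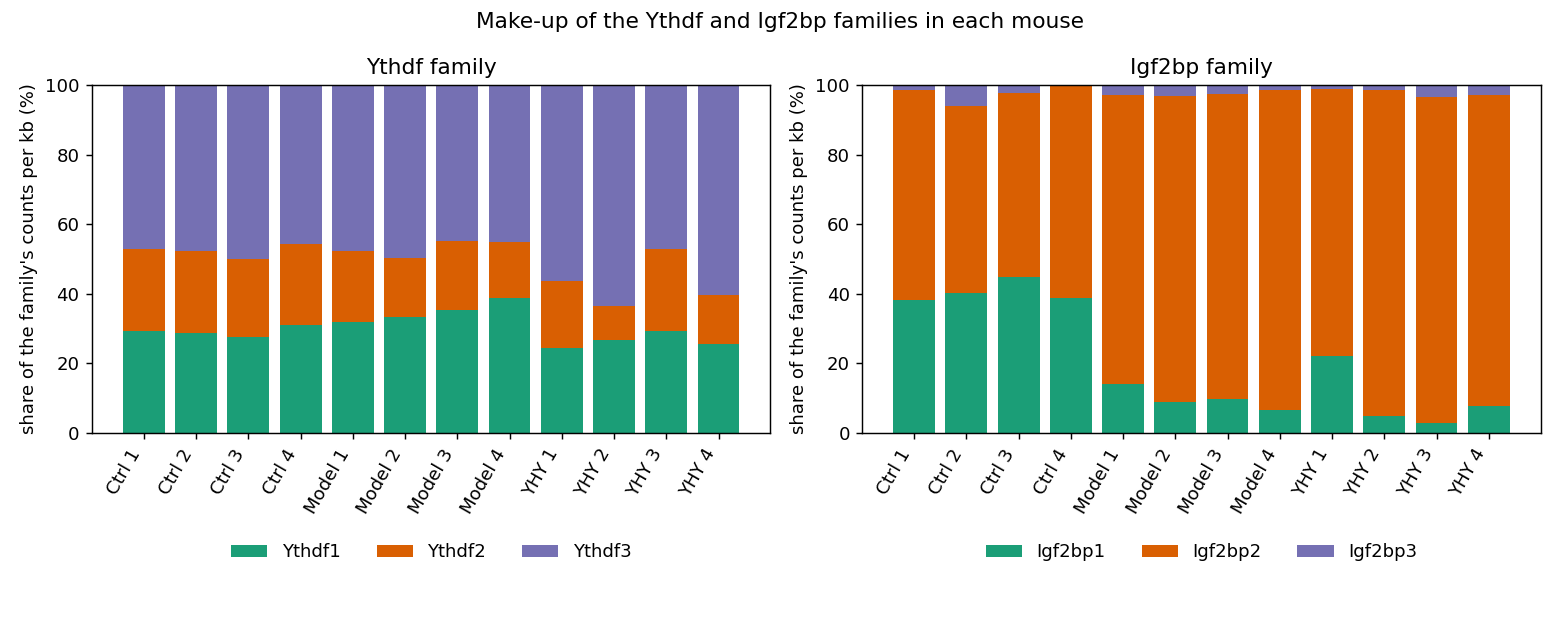
Share of each member (percent of the family's counts per kilobase) in the Ythdf family and the Igf2bp family, with a stacked bar for each mouse. Igf2bp1 makes up 38.3% to 44.7% of its family in Ctrl and 2.84% to 22.1% in the db/db mice, and Ythdf3 is the largest part of the Ythdf family in each mouse.

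A ratio of 2 genes within a library does not depend on the scaling. The log2 ratio of Ythdf2 to Ythdf1 counts was 0.14, 0.17, 0.15 and 0.05 in Ctrl 1 to 4 and -0.16, -0.52, -0.35 and -0.80 in Model 1 to 4. The groups did not overlap, with a difference in means of -0.59, and the two-sided exact permutation test gave P = 0.0286, the smallest that 4 mice against 4 can give, and 0.0571 after Benjamini-Hochberg adjustment over 8 ratio comparisons. In YHY 1 to 4 this ratio was 0.12, -1, 0.13 and -0.43, so YHY 1 and YHY 3 were near the Ctrl mice and YHY 2 was below every Model mouse (difference from Model 0.17, exact P = 0.571, adjusted P = 0.653). The log2 ratio of Ythdf3 to Ythdf1 was 1.28, 1.27, 1.04 and 0.91 in Model 1 to 4 and 1.90, 1.95, 1.37 and 1.93 in YHY 1 to 4. Every YHY mouse was above every Model mouse, by 0.66 between the means (exact P = 0.0286, adjusted P = 0.0571). Against Ctrl, Model differed in this ratio by -0.27 (exact P = 0.0857, adjusted P = 0.137), and the groups overlapped. None of the 8 ratio comparisons passed an adjusted P of 0.05, and 4 of them were at the smallest exact P the design allows.

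**Figure D5:**
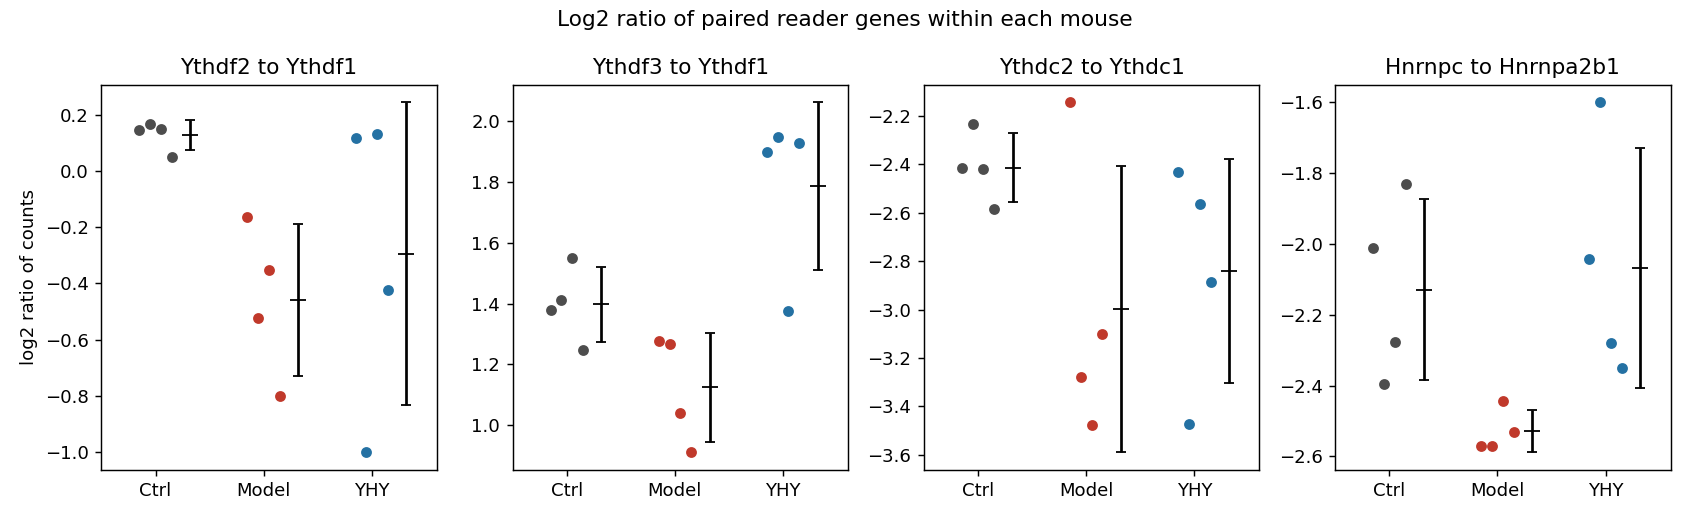
Log2 ratio of the counts of 2 readers within each mouse, with a point for each mouse and the mean ± SD of the group beside it. The ratio of Ythdf3 to Ythdf1 lies between 0.91 and 1.28 in Model and between 1.37 and 1.95 in YHY.

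Ythdc1 encodes the nuclear YTH protein, known for its part in the splicing of marked RNA with SR proteins and in its export from the nucleus. Ythdc1 (ENSMUSG00000035851, chr5:86952080-86984518 in GRCm39) read 29.4, 25.0, 27.1 and 30.6 CPM in Ctrl 1 to 4, 29.9, 49.4, 46.7 and 48.4 CPM in Model 1 to 4, and 53.6, 74.2, 46.0 and 73.4 CPM in YHY 1 to 4. Model 1 lay among the Ctrl mice, the other 3 Model mice lay above them, and every YHY mouse was above every Ctrl mouse. Ythdc1 was higher in Model than in Ctrl by 0.63 on the log2 scale (SE 0.19, adjusted P = 0.0137) and higher in YHY than in Ctrl by 1.14 (SE 0.19, adjusted P = 0.000121) by edgeR. With library size alone the first call was lost (0.17, adjusted P = 0.476), and it held whichever mouse was left out. YHY against Model gave 0.50 (adjusted P = 0.0846), with an interval from 0.11 to 0.90, and passed without YHY 3 (0.62, adjusted P = 0.0402) and with totals outside the mitochondrial genome (0.62, adjusted P = 0.0442), while it was 0.35 (adjusted P = 0.185) without Model 1 and 0.27 (adjusted P = 0.29) without Ctrl 2, Model 1 and YHY 4. Model 1, the lowest Model mouse here, also had the lowest mitochondrial share (41.2%), Malat1 (180 CPM) and Neat1 (371 CPM) of the db/db mice. The part of nuclear RNA in the level of Ythdc1 was not tested.

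Ythdc2 encodes a YTH protein with an RNA helicase domain, best known from meiosis in germ cells. Ythdc2 (ENSMUSG00000034653) read 5.52, 5.30, 5.07 and 5.10 CPM in Ctrl 1 to 4, 6.76, 5.10, 4.20 and 5.64 CPM in Model 1 to 4, and 9.92, 6.69, 7.78 and 9.92 CPM in YHY 1 to 4. YHY 2 lay just below Model 1, and the other YHY mice were above every Model mouse. Ythdc2 was higher in YHY than in Model by 0.66 on the log2 scale (SE 0.21, 95% interval 0.22 to 1.10, adjusted P = 0.0474, edgeR). That call rested on each of 10 mice: without Ctrl 1, 2, 3 or 4, Model 2, 3 or 4, or YHY 1, 3 or 4 the adjusted P was between 0.0578 and 0.144, while the log2 fold change stayed between 0.55 and 0.79 for any mouse left out. Library size alone (adjusted P = 0.154), no filter (0.113) and only the 8 mice compared (0.0816) ended it too. So did a block for replicate number (0.0553) and leaving out Ctrl 2, Model 1 and YHY 4 (0.0651). Against Ctrl the YHY difference was 0.71 (adjusted P = 0.00937), without overlap between the groups, and that call was lost with library size alone (0.30, adjusted P = 0.387). In Model against Ctrl it was 0.05 (adjusted P = 0.871), with a sign that turned with library size alone (-0.36). The log2 ratio of Ythdc2 to Ythdc1 had a mean of -2.41 ± 0.14 for Ctrl, -3.00 ± 0.59 for Model and -2.84 ± 0.46 for YHY (SD, n = 4). Neither the Model difference from Ctrl (-0.58, exact P = 0.143, adjusted P = 0.19) nor the YHY difference from Model (0.16, exact P = 0.686, adjusted P = 0.686) passed.

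The IGF2BP proteins bind mRNAs such as that of Igf2 and stabilise them. IGF2BP1 and IGF2BP3 are mostly fetal proteins, and IGF2BP2 is the member found most widely in adult tissue. Igf2bp2 (ENSMUSG00000033581, chr16:21877759-21982049 in GRCm39) read 4.42, 3.96, 3.06 and 5.01 CPM in Ctrl 1 to 4, 6.44, 7.05, 9.82 and 11.2 CPM in Model 1 to 4, and 8.93, 13.0, 13.1 and 8.60 CPM in YHY 1 to 4. All db/db mice were above all Ctrl mice, and Model and YHY overlapped. The level was higher in Model than in Ctrl by 1.07 on the log2 scale (SE 0.24, 95% interval 0.56 to 1.58, adjusted P = 0.00252, edgeR), a fold of 2.10. It was higher in YHY than in Ctrl by 1.41 (adjusted P = 0.00017), and YHY against Model gave 0.34 (adjusted P = 0.371, 95% interval -0.16 to 0.84). Both calls against Ctrl held whichever mouse was left out, and the first missed the threshold with library size alone (0.62, adjusted P = 0.0729).

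Igf2bp1 (ENSMUSG00000013415, chr11:95847989-95896766 in GRCm39) went the other way on few counts, between 14 and 183 in a mouse. It read 3.67, 3.87, 3.38 and 4.17 CPM in Ctrl 1 to 4, 1.42, 0.953, 1.42 and 1.07 CPM in Model 1 to 4, and 3.36, 0.885, 0.521 and 0.969 CPM in YHY 1 to 4. Model lay below Ctrl in every mouse, and YHY 1 stood just under the lowest Ctrl mouse, well above the other 3 YHY mice. The level fell by 1.63 on the log2 scale in Model against Ctrl (SE 0.46, 95% interval -2.60 to -0.66, adjusted P = 0.0109, edgeR), to 0.323 of the Ctrl level. The value of YHY against Ctrl was -1.39 (adjusted P = 0.0181), and that call was lost with totals outside the mitochondrial genome (-0.89, adjusted P = 0.115). The call held with any single mouse left out, with values from -1.11 without YHY 3 to -2.26 without YHY 1. Without Ctrl 2, Model 1 and YHY 4 together it was lost (-1.25, adjusted P = 0.0779). Set against Model, YHY gave 0.24 (adjusted P = 0.786), and without YHY 1 the value was -0.63 (adjusted P = 0.286). Igf2bp3 (ENSMUSG00000029814, chr6:49062157-49191891 in GRCm39) had between 0 and 16 counts in a mouse and was not tested. Its gene overlaps Malsu1 on the other strand, and whether the counting used strand is not given in the sources used here.

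The Igf2bp family therefore changed in make-up with genotype. Per kilobase, Igf2bp1 made up 38.3%, 40.1%, 44.7% and 38.9% of the family's counts in Ctrl 1 to 4, 14.0%, 9.06%, 9.67% and 6.67% in Model 1 to 4, and 22.1%, 4.86%, 2.84% and 7.70% in YHY 1 to 4. No db/db mouse reached the Ctrl range. Igf2bp2 made up 57.0 ± 4.25% for Ctrl, 87.6 ± 3.57% for Model and 88.3 ± 7.99% for YHY (SD, n = 4). These shares are ratios within a library and do not depend on scaling.

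Hnrnpc encodes hnRNP C, a nuclear protein that binds uridine tracts which the m6A mark can unfold, and Hnrnpa2b1 encodes hnRNP A2/B1, linked to splicing and to microRNA processing. Hnrnpc (ENSMUSG00000060373, chr14:52310834-52341485 in GRCm39) had the smallest adjusted P of the readers in Model against Ctrl. It read 100.2, 81.4, 84.7 and 98.1 CPM in Ctrl 1 to 4, 60.1, 51.1, 58.3 and 53.9 CPM in Model 1 to 4, and 62.9, 67.3, 67.7 and 71.4 CPM in YHY 1 to 4. The 3 groups did not overlap, with Ctrl highest, YHY between and Model lowest. Hnrnpc fell by 0.71 on the log2 scale in Model (SE 0.13, 95% interval -0.97 to -0.44, adjusted P = 0.000496, edgeR). Hnrnpc stayed called there at -0.39 (adjusted P = 0.0319) with totals outside the mitochondrial genome and at -1.14 (0.000246) with library size alone. In YHY it was lower than in Ctrl by a log2 value of -0.44 (adjusted P = 0.00904), which became 0.03 (adjusted P = 0.886) with totals outside the mitochondrial genome. YHY against Model gave 0.27 (unadjusted P = 0.0493, adjusted P = 0.173, edgeR), which did not pass. Of 7 pseudogenes named after Hnrnpc, 3 had counts, which amounted to 1.30% of those of Hnrnpc, and reads that map to more than 1 copy were not measured.

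Hnrnpa2b1 (ENSMUSG00000004980, chr6:51437912-51446874 in GRCm39) was the most abundant reader. It read 404, 428, 411 and 349 CPM in Ctrl 1 to 4, 357, 303, 317 and 312 CPM in Model 1 to 4, and 259, 204, 329 and 364 CPM in YHY 1 to 4. Ctrl 4 lay below Model 1, and YHY 2 and YHY 4 were the lowest and the highest of the db/db mice. Model against Ctrl gave -0.30 (adjusted P = 0.192, edgeR), which was -0.72 (adjusted P = 0.0211), a call, with library size alone and 0.03 with totals outside the mitochondrial genome, and YHY against Ctrl gave -0.46 (adjusted P = 0.0407). The second value was -0.34 with upper-quartile scaling (adjusted P = 0.123) and 0.01 with totals outside the mitochondrial genome, and leaving out Ctrl 1, 2 or 3, Model 2 or 3, or YHY 1 or 2 ended the call (adjusted P between 0.0511 and 0.112). The log2 ratio of Hnrnpc to Hnrnpa2b1 counts was -2.01, -2.40, -2.28 and -1.83 in Ctrl 1 to 4, -2.57, -2.57, -2.44 and -2.53 in Model 1 to 4, and -2.04, -1.60, -2.28 and -2.35 in YHY 1 to 4. Every Model mouse was below every mouse of the other groups. The difference was -0.40 for Model against Ctrl and 0.46 for YHY against Model, each with an exact permutation P of 0.0286, the smallest possible, and an adjusted P of 0.0571.

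Promoter sequences are shown for 4 readers called between Model and Ctrl, of which Ythdc1 and Igf2bp2 were higher and Ythdf2 and Hnrnpc were lower. RefSeq promoters of 300 bases, from the GRCm38.p6 build, had an entry for 7 of the 10 readers, and Ythdf3, Ythdc2 and Igf2bp1 had none. Each sequence reads 5′ to 3′ on the strand of the gene, and capitals mark matches on either strand to any of 4 motifs: the GC box GGGCGG, the CCAAT box CCAAT, the CRE core TGACGT and the E box CACGTG.
Ythdc1: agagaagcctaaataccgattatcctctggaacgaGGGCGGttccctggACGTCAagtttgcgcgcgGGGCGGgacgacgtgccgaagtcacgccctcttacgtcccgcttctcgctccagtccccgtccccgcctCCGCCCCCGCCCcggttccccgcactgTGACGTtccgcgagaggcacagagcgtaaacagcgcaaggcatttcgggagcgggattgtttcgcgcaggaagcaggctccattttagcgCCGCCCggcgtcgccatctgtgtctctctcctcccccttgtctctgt
Igf2bp2: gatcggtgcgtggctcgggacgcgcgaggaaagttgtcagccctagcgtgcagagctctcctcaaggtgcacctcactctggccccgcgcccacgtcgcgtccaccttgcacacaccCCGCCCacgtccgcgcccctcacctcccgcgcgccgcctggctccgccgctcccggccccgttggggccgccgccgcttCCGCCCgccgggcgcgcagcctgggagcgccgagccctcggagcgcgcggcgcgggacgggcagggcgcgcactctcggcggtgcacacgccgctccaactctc
Ythdf2: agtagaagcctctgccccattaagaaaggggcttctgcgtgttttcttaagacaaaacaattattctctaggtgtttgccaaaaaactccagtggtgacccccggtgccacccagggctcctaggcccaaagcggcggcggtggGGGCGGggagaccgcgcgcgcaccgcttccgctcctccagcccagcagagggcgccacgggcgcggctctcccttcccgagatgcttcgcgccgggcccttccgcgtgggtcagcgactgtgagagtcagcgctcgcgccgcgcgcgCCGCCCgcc
Hnrnpc: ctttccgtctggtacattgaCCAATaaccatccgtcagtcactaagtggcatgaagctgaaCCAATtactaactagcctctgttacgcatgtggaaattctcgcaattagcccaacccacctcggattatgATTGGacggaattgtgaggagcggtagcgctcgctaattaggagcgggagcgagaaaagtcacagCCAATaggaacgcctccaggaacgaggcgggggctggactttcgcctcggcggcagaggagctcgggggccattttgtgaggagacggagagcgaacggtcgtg

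In GRCm38.p6 these promoters lie at chr5:86804016-86804315 on the plus strand (Ythdc1), and at chr16:22163250-22163549 (Igf2bp2), chr4:132212207-132212506 (Ythdf2) and chr14:52103972-52104271 (Hnrnpc) on the minus strand. The promoter of Ythdc1, higher in Model, held 5 GC boxes and 2 CRE cores, and that of Igf2bp2, also higher, held 2 GC boxes. The promoter of Ythdf2, lower in Model, held 2 GC boxes, and that of Hnrnpc, also lower, held 4 CCAAT boxes and none of the other 3 motifs. Of all 32851 RefSeq promoters of this length, 35.7% held a GC box, 37.4% a CCAAT box, 7.51% a CRE core and 7.15% an E box. The promoters were rich in G and C, from 54.3% (Hnrnpc) to 76.7% (Igf2bp2). A match describes these letters and is not a measured binding site.

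The genes whose level followed a reader most closely over the 12 mice, among 11860 named protein-coding genes with a mean count of at least 50, were taken for Hnrnpc and Ythdf3, which had the smallest adjusted P of the readers when Model was set against Ctrl and YHY against Model, respectively. For Hnrnpc they were Ostm1 (Pearson r of log2 CPM 0.975), E2f5 (0.975) and St7l (0.966). For Ythdf3 they were Sos1 (r = 0.951), Vmp1 (0.928) and Acvr2a (0.918). These r values, over 12 mice in 3 groups, include the differences between the groups and are a description only.

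The partners of the readers were read from lists of named genes, beside the shares of all genes called (19.6% higher and 18.5% lower in Model against Ctrl). Of the 9 m6A writers tested, 2 were higher and 3 lower in Model against Ctrl (median log2 fold change -0.20). In YHY against Model 0 writers passed in either direction by edgeR, where 5.63% of all genes were higher and 7.62% lower. Mettl3, the catalytic subunit of the writer complex, read 7.28, 4.90, 6.91 and 7.95 CPM in Ctrl 1 to 4, 3.83, 3.62, 3.56 and 3.16 CPM in Model 1 to 4, and 6.72, 3.10, 6.55 and 10.04 CPM in YHY 1 to 4. Model lay below Ctrl in every mouse, and YHY 2 lay below Model while the other YHY mice lay above it. The log2 fold changes of Mettl3 were -0.93 in Model against Ctrl (adjusted P = 0.019) and 0.90 in YHY against Model (adjusted P = 0.0519) by edgeR. Mettl14, its partner subunit, gave -0.20 (adjusted P = 0.417) and 0.11 (adjusted P = 0.754). Wtap, which holds the complex in nuclear speckles, was higher in Model by 0.42 (adjusted P = 0.0165), and Zc3h13, a subunit that keeps the complex in the nucleus, by 0.62 (adjusted P = 0.00817). Set against Ctrl, YHY had 2 writers higher, Zc3h13 at 1.00 (adjusted P = 0.000151) above Wtap, and 1 lower, Mettl16 (-1.06, adjusted P = 0.000101). In that comparison 26.1% of all genes were higher and 24.2% lower.

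Both erasers were lower in Model against Ctrl, where 18.5% of all genes were lower, with a median of -0.86 beside 0.04 for all genes. Fto fell from 41.1 ± 2.55 CPM in Ctrl to 20.0 ± 1.11 in Model (SD, n = 4), by 1.04 on the log2 scale (adjusted P = 4.65e-05, edgeR), and it stood at 19.1 ± 3.24 CPM in YHY. Alkbh5 was at 75.9 ± 4.37, 47.4 ± 3.56 and 35.8 ± 1.09 CPM in Ctrl, Model and YHY (SD, n = 4). It fell by 0.68 in Model against Ctrl (adjusted P = 0.000364) and by 0.41 more in YHY against Model (adjusted P = 0.0323). Of 8 other proteins proposed to bind m6A, 0 were higher and 4 lower by edgeR in Model against Ctrl (median -0.49), among them Snd1, a nuclease-domain protein, at -1.11 (adjusted P = 7.08e-05). Only Fmr1, the gene of the fragile X protein, was higher in YHY than in Model (0.58, adjusted P = 0.0404), where 5.63% of all genes were higher. Relative to Ctrl, 1 was higher in YHY (Prrc2a, a proline-rich RNA binding protein gene, 0.39, adjusted P = 0.0376) and 5 were lower (26.1% and 24.2% of all genes), with Snd1 at -1.20 (adjusted P = 1.33e-05), while Fto was at -1.10 (adjusted P = 1.02e-05). Mtor, a kinase gene read beside this pathway, gave -0.40 (adjusted P = 0.136) in Model against Ctrl and 0.10 (adjusted P = 0.809) in YHY against Model.

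Genes that act downstream of the cytoplasmic readers were read beside the shares of all genes called, 19.6% higher and 18.5% lower in Model against Ctrl and 5.63% and 7.62% in YHY against Model. Of the 10 CCR4-NOT deadenylase subunits, 1 was higher (Cnot10, 1.18, adjusted P = 0.000191) and 2 were lower in Model against Ctrl (among them the catalytic subunit Cnot6l, -0.47, adjusted P = 0.0215), with a median of -0.12. The scaffold partner Cnot3 alone was higher in YHY than in Model (0.83, adjusted P = 0.00944), and relative to Ctrl Cnot10 was at 0.90 (adjusted P = 0.000829) and Cnot9 at -0.96 (adjusted P = 0.000169) in YHY. Of 10 other decay factors, 4 were higher and 1 lower in Model against Ctrl (median 0.30). Pan2, a deadenylase subunit, was higher by 1.73 (adjusted P = 7.37e-05), and the helicase gene Ddx6 was lower (-0.87, adjusted P = 0.00024). Against Model, YHY had 3 decay factors higher, among them the decapping gene Dcp1a (0.64, adjusted P = 0.0143), and 1 lower, Lsm1 (-0.80, adjusted P = 0.00469). Relative to Ctrl, Pan2 was at 2.31 (adjusted P = 2.7e-06) and Rida, the most abundant gene of this list, at -1.18 (adjusted P = 0.00326) in YHY. Of 14 genes for eIF3, the initiation factor that YTHDF1 and METTL3 have been reported to bind, 7 were lower and 0 higher by edgeR in Model against Ctrl (median -0.41), with Eif3j1 at -1.19 (adjusted P = 5.58e-05). Eif3i was lower in YHY than in Model (-0.46, adjusted P = 0.0345), and 10 of the eIF3 genes were lower in YHY than in Ctrl (median -0.56, where 24.2% of all genes were lower and their median was 0.10), with Eif3j2 at -1.48 (adjusted P = 0.0263).

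Among 10 nuclear splicing and export factors, the partners of YTHDC1, 2 were higher and 3 lower in Model against Ctrl (median -0.08), near the 19.6% and 18.5% of all genes. Against Model, 4 were higher and 1 lower in YHY (median 0.43, where 5.63% and 7.62% of all genes were called), and against Ctrl 4 were higher and 3 lower (median 0.21, with 26.1% and 24.2%). Nxf1, the main mRNA export receptor, rose by 1.46 in Model against Ctrl (adjusted P = 6.98e-05, edgeR) and by a further 0.70 in YHY against Model (adjusted P = 0.0294). Alyref, an export adaptor gene, was lower in Model (-1.02, adjusted P = 0.00434), and relative to Ctrl the YHY values were 2.16 for Nxf1 (adjusted P = 1.13e-06) and -1.26 for Alyref (adjusted P = 0.000575). Safb, for a nuclear scaffold protein, was higher in YHY than in Model (0.84, adjusted P = 0.00631), and the splicing factor gene Srsf9 was lower (-0.55, adjusted P = 0.0163). Of 22 other hnRNP genes, 3 were higher and 8 lower in Model against Ctrl (median -0.14), with Hnrnpr at 0.75 (adjusted P = 0.0129) and the poly(C) binding protein gene Pcbp1 at -1.35 (adjusted P = 0.000127). YHY had 6 of them higher and 1 lower than Model (median 0.24), with Hnrnph1 at 0.92 (adjusted P = 0.0036) and Hnrnpf at -0.66 (adjusted P = 0.0231). Relative to Ctrl, Hnrnph1 was at 1.19 (adjusted P = 3.52e-05) and Pcbp1 at -1.60 (adjusted P = 1.31e-05) in YHY. With 6 of the 22 higher and 7 lower in YHY than in Ctrl, called genes of this list lay on both sides in each comparison.

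Nuclear-retained RNAs were higher in the db/db mice, as Ythdc1 was. Of 5 tested, 4 were higher in Model against Ctrl (median 1.78, where 19.6% of all genes were higher) and 0 lower by edgeR, led by Kcnq1ot1 (2.86, adjusted P = 1.59e-05), an RNA transcribed across an imprinted locus. Their summed level was 366, 378, 306 and 296 CPM in Ctrl 1 to 4, 559, 1059, 736 and 656 CPM in Model 1 to 4, and 1335, 1301, 1119 and 1532 CPM in YHY 1 to 4, with Neat1 the most abundant. The 3 groups did not overlap in this sum. YHY had 2 higher than Model (5.63% of all genes), with Malat1 at 0.93 (adjusted P = 0.0127), and all 5 higher than Ctrl (median 2.07, with 26.1% of all genes higher), with Kcnq1ot1 at 2.92 (adjusted P = 4.26e-06). Their part in the reader levels was not tested.

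Igf2bp1 and Igf2bp3 belong with a fetal growth axis, of which 5 of 8 genes had enough counts to be tested. In Model against Ctrl 2 were higher and 1 lower (median -0.10, beside 19.6% and 18.5% of all genes), with Hmga2, a fetal chromatin protein gene, at 1.54 (adjusted P = 0.00603) and the receptor gene Igf2r at -0.98 (adjusted P = 0.000498). Myc, a growth transcription factor gene, was the only one higher in YHY than in Model (1.55, adjusted P = 0.00951), where 5.63% of all genes were higher. Relative to Ctrl, 3 were higher and 1 lower in YHY (26.1% and 24.2% of all genes), with Hmga2 at 2.17 (adjusted P = 0.000315) and Igf2r at -0.92 (adjusted P = 0.00046). Hmga2 and Igf2bp1 thus moved in opposite directions in the db/db mice.

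Markers of kidney cells were read beside the readers and beside the shares of all genes called, which were 19.6% higher and 18.5% lower for Model against Ctrl, 5.63% and 7.62% for YHY against Model, and 26.1% and 24.2% for YHY against Ctrl. With 4 to 7 genes, each list can differ from these shares by few genes. Proximal tubule markers were well expressed in every mouse, with Slc34a1 the most abundant. Of 6, 2 were lower in Model against Ctrl (median -0.34) and 0 passed in YHY against Model by edgeR. Podocyte markers gave 2 of 5 higher, loop of Henle and distal tubule markers 1 of 4 higher and 1 lower, and collecting duct markers 2 of 6 lower in Model against Ctrl. Endothelial markers gave 1 of 5 higher, mesangial and stromal markers 2 of 5 higher, and macrophage markers 1 of 5 higher and 1 lower. Collecting duct markers, most abundant in Aqp2, summed to 904, 613, 621 and 1446 CPM in Ctrl 1 to 4 and 626, 408, 509 and 455 CPM in Model 1 to 4, and 1 of 6 was lower in YHY against Model. In that comparison 0 podocyte, loop and distal, endothelial, mesangial and stromal or macrophage markers passed by edgeR. Relative to Ctrl, YHY had 1 proximal tubule marker higher and 3 lower of 6 (median -0.83), 1 collecting duct marker higher and 3 lower of 6 (-0.67), 3 podocyte markers higher and 1 lower of 5 (0.62) and 2 macrophage markers higher and 1 lower of 5 (0.42). The other lists gave 1 higher and 1 lower of 4 for loop and distal tubule (0.04), 1 of 5 higher for endothelium (0.17), 2 of 5 higher for mesangial and stromal cells (0.24), and 0 of 4 in either direction for lymphocytes (-0.38) by edgeR. The part of these cell types in the reader levels was not tested. Lymphocyte markers (4 of 7 tested), most abundant in Jchain, summed to 12.4, 10.1, 8.67 and 3.30 CPM in Ctrl 1 to 4, 2.19, 1.43, 2.47 and 3.33 CPM in Model 1 to 4, and 7.82, 4.09, 24.9 and 2.71 CPM in YHY 1 to 4. YHY 3 stood highest, and 1 to 3 of the 7 markers were at 0 counts in each db/db mouse, against 0 in the Ctrl mice. Of those tested, 1 was lower in Model against Ctrl and 1 higher in YHY against Model. Adipocyte markers were at or below 1.33 CPM in sum, and 0 of 4 had enough counts to be tested. Of 4 adrenal cortex markers 1 was tested, Star, and it was higher in Model against Ctrl (1.32, adjusted P = 0.00128).

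Markers of dividing cells moved with genotype and treatment. Their summed level, led by Mki67, was 8.02, 9.02, 6.88 and 3.32 CPM in Ctrl 1 to 4, 41.3, 40.8, 30.4 and 37.5 CPM in Model 1 to 4, and 10.6, 13.1, 6.03 and 7.44 CPM in YHY 1 to 4. Model stood above both other groups in every mouse, and none of the 5 markers was at 0 in any mouse. In Model against Ctrl 4 of 5 were higher and 0 lower (median 1.97, where 19.6% and 18.5% of all genes were called), and in YHY against Model 3 were lower and 0 higher (median -2.35, with 7.62% and 5.63%) by edgeR. Relative to Ctrl, 2 of 5 were higher and 0 lower in YHY (median 0.47, with 26.1% and 24.2%) by edgeR. Their part in the levels of the readers was not tested.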

How the data were processed

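The authors deposited raw read counts for 57490 genes in 12 mice, with gene lengths and GRCm39 coordinates. Per the submitters' processing notes, Trimmomatic 0.39, HISAT2 2.2.1, SAMtools 1.12, featureCounts 2.0.1, FastQC 0.11.9, DESeq2 1.34.0 and R 4.1.2 were used. The strand setting of the counting is not given in the sources used here. The authors' comparison tables hold group means as a normalized signal, which matched means over 9 of the 12 mice (without Ctrl 2, Model 1 and YHY 4). Their log2 fold changes and p-values are the authors' own comparisons and were not used, nor were the KEGG tables or the 12 columns of normalized values by sample, 1 of whose names appears 2 times.

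Counts were tested in R 4.3.3 with edgeR 4.0.16 (TMM scaling, filterByExpr, glmQLFit and glmQLFTest, two-sided) in 1 fit of 3 groups, adjusted by Benjamini-Hochberg across the 17431 genes that passed the filter. A gene was called at an adjusted P under 0.05. CPM values are TMM-scaled, and CPM per kb divides by the deposited gene length. Ratios of readers were compared by two-sided exact permutation tests over mice. Files were read with the R package data.table, version 1.17.8. Replicates differed by a chi-square of 19.2 to 156 per degree of freedom, so no libraries were counted as 1. The fit was tested on simulated data with known changes.

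The genes named are the 10 readers, Lepr, Mettl3, Mettl14, Wtap, Fto, Alkbh5 and Mtor, from each pathway list the gene with the largest change in each direction of each comparison (adjusted P under 0.05, mean count of at least 50), and the 3 genes most like a reader. Markers named beside a summed level are the most abundant of their list, and Star and Neat1 were named after their values were seen. The readers and all lists were chosen with earlier results of these data known. Alternatives were DESeq2 1.42.0, upper-quartile scaling, library size alone, totals outside the mitochondrial genome, no filter, at least 10 counts in every mouse, a fit of the 8 mice of each comparison alone, a block for replicate number, the study's fold and P rule, the mice of the authors' means, and each mouse left out in turn. Library totals of 24415658 to 33276634 counts limit the precision for genes of few counts. The Wilson intervals of the mitochondrial shares cover counting error only, and the intervals of log2 fold changes, from edgeR's fit, include variation between mice.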

Additional observations from a re-analysis of the deposited data

Results flagged for a closer look

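In each group of 4 mice, the reader levels, the ratios of readers and the mitochondrial share of counts were searched. The search was for a mouse whose distance from its nearest neighbour took up most of the range of its group, by Dixon's 95% limit. Of 45 groups looked at, 7 were past it, where chance alone marks about 1 in 20. Ythdc1 stood at 29.9 CPM in Model 1, where the rest of the Model group lay at 46.7 to 49.4 CPM. Igf2bp1 stood at 3.36 CPM in YHY 1, where the rest of the YHY group lay at 0.521 to 0.969 CPM. Ythdf1 stood at 28.2 CPM in Model 4 (others 24.3 to 25.0 CPM), and Ythdf2 at 29.1 CPM in Ctrl 1 (others 27.1 to 27.3 CPM). The log2 ratio of Ythdf3 to Ythdf1 was 1.37 in YHY 3, against 1.90 to 1.95 in the other YHY mice. The mitochondrial share of counts was 22.7% in Ctrl 2 (others 18.4% to 18.6%) and 64.6% in YHY 2 (others 53.8% to 54.6%). Library totals were not part of this search. Ctrl 2 had a total of 29632718 counts, where the other Ctrl mice had 32677732 to 33276634.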

How the results depend on the processing

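Of the counts of calls compared with their value under an alternative, 222 were classed as near their size and 42 were not. A count classed as near could still move. Readers higher in YHY against Ctrl, 3 in the main fit, ran from 2 to 4 over 10 settings, all classed as near. The 80 ratio values are left out of this tally, since no ratio had a call to lose. Of the readers' own fold changes, 479 were the same in sign and call, 25 were reversed, 55 lost a call and 8 gained one. With library size alone, 1547 genes were higher and 5667 lower in Model against Ctrl, with 0 readers higher and 5 lower (edgeR); in YHY against Model 491 genes were higher and 686 lower, with 0 readers higher, and in YHY against Ctrl 2365 genes were higher. With totals outside the mitochondrial genome and the mitochondrial genes removed (16952 genes tested), which changes scaling and gene set at once, the counts were 5584 and 1597, 1514 and 831, and 7440 and 2140, with 0 readers lower in YHY against Ctrl. With upper-quartile scaling, and without Ctrl 2, Model 1 and YHY 4, the mice that the deposited group means leave out, 2 readers were lower in YHY against Ctrl. The study's own limits (1.2-fold, P under 0.05 without adjustment) gave 2429 genes higher and 2559 lower in YHY against Model, with 4 readers higher. In YHY against Model, 0 readers were higher by edgeR with no filter, with only the 8 mice compared (692 genes lower), without those 3 mice, and with the replicate number as a block. Deviations of mice with the same number from their group means had r between -0.16 and 0.11 over all comparisons. The limit set for pairing was 0.1, and 2 values in YHY against Ctrl (0.104 and 0.107) were above it. Mice with different numbers were not compared, so this check does not settle whether the numbers pair mice. With the block, 793 genes were higher and 1127 lower in YHY against Model, in place of 982 and 1329. The adjusted P by edgeR was then 0.0723 for Ythdf3 and 0.0553 for Ythdc2.

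Some signs turned. In Model against Ctrl, Ythdf1 was -0.42 with library size alone, -0.0115 with no filter, -0.00359 with only the 8 mice and -0.0366 without those 3 mice. Ythdc2 was -0.36 with library size alone and -0.12 without those 3 mice, and with totals outside the mitochondrial genome Ythdf3 was 0.0701 and Hnrnpa2b1 0.0263. In YHY against Ctrl that scaling gave 0.32 for Ythdf1, 0.0116 for Hnrnpa2b1 and 0.0251 for Hnrnpc, and library size alone gave -0.18 for Ythdf3. With each mouse left out in turn, YHY against Model had 419 to 1045 genes higher, 727 to 1678 lower and 0 to 2 readers higher, and YHY against Ctrl had 2 to 4 readers lower. The fewest genes came without Model 3 (419 higher, 727 lower). Over those fits Ythdf1 ran from -0.0479 to 0.0268 and Ythdc2 from -0.13 to 0.15 in Model against Ctrl, and Ythdf2 from -0.0803 to 0.22 and Igf2bp1 from -0.63 to 0.52 in YHY against Model. Igf2bp1 lost its call in YHY against Ctrl without those 3 mice (adjusted P = 0.0779), as did Ythdf2 (0.0512), and Hnrnpa2b1 lost its call with no filter (0.0526), with at least 10 counts in every mouse (0.0631) and with the block (-0.48, 0.0541). Hnrnpc and Igf2bp1 in Model against Ctrl, and Ythdc1 and Igf2bp2 in YHY against Ctrl, kept their call under every alternative run. Apart from the scalings, whose shift of all genes is given above, the cause of these differences was not tested. Depth limits Igf2bp1 and Igf2bp3 most, with at most 183 and 16 counts in a mouse.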
